A study of Mus musculus with 8 samples.

Results

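The genes described here are 10 regulators and cadherins of epithelial-mesenchymal transition (EMT): the transcription factors Snai1, Snai2, Zeb1, Zeb2, Twist1, Twist2 and Tcf4, the cadherins Cdh1 and Cdh2, and the splicing regulator Esrp2. They were listed by symbol and matched by Entrez identifier, and all 10 were found among the 36528 identifiers of each library. The RNA was taken from primary omental mesothelial cells of mice, in 4 BAP1 KO libraries and 4 WT libraries. BAP1 is a deubiquitinase that acts on histone H2A. The labels give the genotype and no further allele, agent, age or sex, and they do not say how the deletion was made. Nor do they state if libraries of 1 genotype stem from different mice or dishes, so the p-values reflect the scatter of these libraries alone, and that scatter may be technical. Levels are the authors' RPKM adjusted by a size factor (normalized RPKM), which allow genes to be compared per length, and tests used the deposited counts.

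EMT is the change by which cells of a sheet loosen their junctions and become motile. SNAIL, ZEB and TWIST factors bind E-box DNA sequences, and SNAIL and ZEB proteins repress the gene of E-cadherin, Cdh1. In many epithelia this is accompanied by a shift to N-cadherin, Cdh2, which is called the cadherin switch. Mesothelial cells line the body cavities as a sheet, yet they arise from mesoderm and are known for holding epithelial and mesenchymal traits at once.

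Libraries held 67069401 to 84861343 counts. Bap1 itself was lower in every BAP1 KO library, at 53.2 ± 0.91 counts per 1e6 counts (CPM) in BAP1 KO and 63.2 ± 0.73 CPM in WT (SD, n = 4 each), so the BAP1 KO libraries kept 84.2% of the WT level. Which exons the deletion removed was not analysed here. Against the label, all 16 mesothelial markers were detected, with Upk3b, a uroplakin of mesothelium, at 226.7 normalized RPKM in BAP1 KO and 224.1 in WT, and the mesothelial transcription factor Wt1 at 53.4 and 38.7. Markers of other cells were abundant too. The macrophage lysozyme gene Lyz2 averaged 10385.6 normalized RPKM in BAP1 KO and 7834.8 in WT, whereas Cd14, another macrophage marker, averaged 49.8 in BAP1 KO and 98.1 in WT. The fibroblast collagen gene Col1a2 averaged 866.4 in BAP1 KO and 1173.1 in WT. In bulk RNA, fewer cells of a type and less RNA per cell cannot be told apart, and this holds for every difference below.

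Of the 10 genes, 7 were lower in BAP1 KO, 2 were higher and 1 did not pass (edgeR's quasi-likelihood test, Benjamini-Hochberg adjusted p below 0.05 over 16929 genes). Cdh1, Snai2, Tcf4, Twist1, Zeb1, Cdh2 and Zeb2 fell. Esrp2 and Twist2 rose, and Snai1 did not pass. These counts stand beside a broad background, since 61.1% of all tested genes passed, with 29.0% higher and 32.1% lower. The changes were small: the median log2 fold change of BAP1 KO over WT was -0.17 over the 10 genes and 0 over all tested genes, and the median absolute values were 0.20 and 0.18. In CPM, 9 of the 10 genes had BAP1 KO values that did not overlap the WT values, against 53.8% of all tested genes. Among the 9, Zeb2 was apart only narrowly, at 226.5 CPM in the highest BAP1 KO library and 226.9 CPM in the lowest WT library. In normalized RPKM its groups overlapped. Tested against a change of 1.5-fold instead of against no change, 0 of the 10 were higher and 0 lower in edgeR at an adjusted p below 0.05, with 0 higher and 1 lower at an unadjusted p below 0.05.

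**Figure D1:**
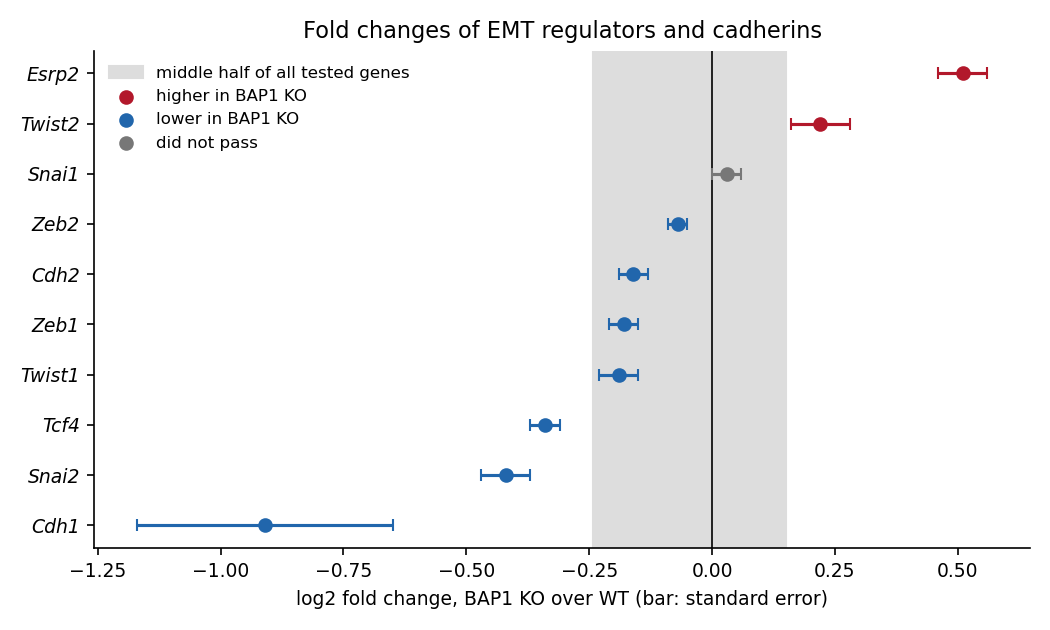
Log2 fold change of BAP1 KO over WT (x axis, bars are the standard error) for each of the 10 genes, with the 25th to 75th percentile of all tested genes, -0.24 to 0.15, shaded. Esrp2, Twist2, Cdh1, Snai2 and Tcf4 lie outside the shaded range, and Snai1, Zeb1, Zeb2, Twist1 and Cdh2 inside it.

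Levels spanned a wide range. In BAP1 KO the order by mean normalized RPKM was Snai1 (24.3), Zeb2 (23.0), Twist1 (11.1), Cdh2 (6.9), Zeb1 (6.21), Twist2 (6.16), Tcf4 (4.43), Snai2 (4.03), Esrp2 (3.53) and Cdh1 (0.0576). The neighbours Snai1 and Zeb2, Zeb1 and Twist2, and Tcf4 and Snai2 overlapped between libraries there, and the other neighbours did not. In WT the order was Zeb2 (24.0), Snai1 (23.7), Twist1 (12.6), Cdh2 (7.64), Zeb1 (6.98), Tcf4 (5.58), Snai2 (5.35), Twist2 (5.23), Esrp2 (2.46) and Cdh1 (0.11). Zeb2 and Snai1 overlapped there, as did Snai2 and Twist2. Both genotypes thus had the same 5 genes at the top and Esrp2 and Cdh1 at the bottom, while Twist2 stood sixth in BAP1 KO and eighth in WT.

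**Figure D2:**
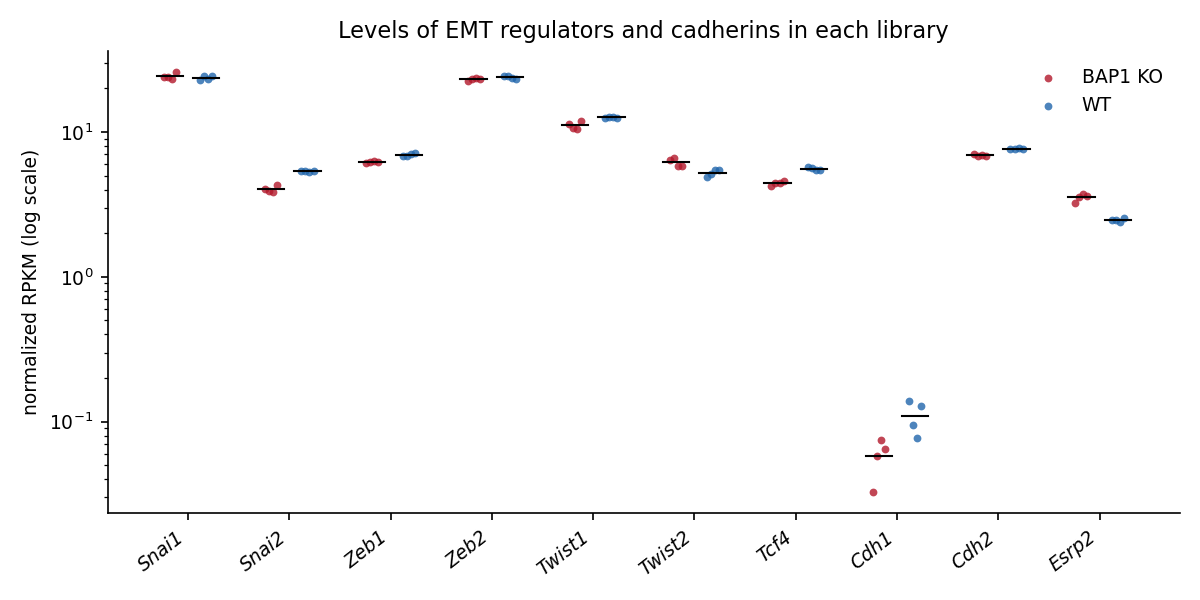
Normalized RPKM on a log axis for the 10 genes in each of the 4 BAP1 KO (left, red) and 4 WT (right, blue) libraries, with a line at the mean. Cdh1 lies at 0.0327 to 0.139, and the other 9 genes lie at 2.4 to 26.0.

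Snai1 and Snai2 encode SNAIL and SLUG, zinc finger repressors of epithelial genes. Snai1 (Entrez 20613, chr2:167538195-167542814, plus strand, RefSeq GRCm38.p6) had 24.0, 23.9, 23.3 and 26.0 normalized RPKM in BAP1 KO replicates 1 to 4, against 22.7, 24.2, 23.3 and 24.5 in WT replicates 1 to 4. The labels give no replicate numbers, so these only name libraries in the order they were listed. The groups overlapped, and BAP1 KO replicate 4 was the highest library. Its log2 fold change of 0.03 ± 0.03 (SE) did not pass (edgeR adjusted p = 0.55). Without BAP1 KO replicate 4 the value was -0.01, and with GC and length trends removed it was -0.08 with an adjusted p of 0.0082, so its direction depended on both. Snai2 (Entrez 20583, chr16:14705852-14709395, plus strand) had 4.05, 3.88, 3.87 and 4.3 normalized RPKM in BAP1 KO, against 5.37, 5.37, 5.25 and 5.41 in WT. Every BAP1 KO library was below every WT library, and the WT libraries lay close together. Snai2 fell to 74.7% of the WT CPM, a log2 fold change of -0.42 ± 0.05 (edgeR adjusted p = 2.3e-08).

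Twist1 and Twist2 encode a pair of related basic helix-loop-helix factors of mesoderm, and they moved in opposite directions. Twist1 (Entrez 22160, chr12:33957671-33959831, plus strand) had 11.4, 10.7, 10.5 and 11.9 normalized RPKM in BAP1 KO, against 12.5, 12.7, 12.6 and 12.5 in WT. The BAP1 KO libraries were all lower and more spread than the WT libraries. Twist1 fell by 0.19 ± 0.04 on the log2 scale (edgeR adjusted p = 0.00026). Twist2 (Entrez 13345, chr1:91801461-91848034, plus strand) had 6.39, 6.57, 5.86 and 5.82 normalized RPKM in BAP1 KO, against 4.86, 5.15, 5.45 and 5.46 in WT. The groups did not overlap, though the gap between the lowest BAP1 KO and the highest WT library was narrower than the spread within either genotype. Twist2 rose by 0.22 ± 0.06 on the log2 scale to 116.8% of the WT CPM (edgeR adjusted p = 0.0019). In GENCODE vM21 the antisense gene Gm29100 overlaps 1477 bases of Twist2 exons. The library kit does not mark strand, so strand cannot tell which transcript gave reads over these bases. To which gene the deposited counts assign such reads is not known. Gm29100 was not analysed here.

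SNAIL, ZEB and TWIST proteins all recognise E-boxes, with the letters CANNTG, so the start regions of members are shown with the form CACCTG or CAGGTG, the reverse complement of each other, in capitals. RefSeq windows of GRCm38.p6, from 250 bases before to 50 bases after the transcription start, were examined for 4 of the members. Zeb1, Tcf4 and Cdh2 were left out of this step, and no window was at hand for Snai2, Cdh1 and Esrp2. The windows of Snai1 and of the oppositely moving Twist1 and Twist2 are printed. They are on the plus strand, at chr2:167537945-167538244, chr12:33957421-33957720 and chr1:91801211-91801510.
Snai1: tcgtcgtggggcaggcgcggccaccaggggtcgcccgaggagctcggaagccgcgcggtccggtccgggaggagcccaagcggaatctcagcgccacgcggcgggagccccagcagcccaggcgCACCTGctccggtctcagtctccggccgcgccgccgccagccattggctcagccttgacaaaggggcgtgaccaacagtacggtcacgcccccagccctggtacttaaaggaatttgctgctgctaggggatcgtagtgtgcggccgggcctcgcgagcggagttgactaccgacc
Twist1: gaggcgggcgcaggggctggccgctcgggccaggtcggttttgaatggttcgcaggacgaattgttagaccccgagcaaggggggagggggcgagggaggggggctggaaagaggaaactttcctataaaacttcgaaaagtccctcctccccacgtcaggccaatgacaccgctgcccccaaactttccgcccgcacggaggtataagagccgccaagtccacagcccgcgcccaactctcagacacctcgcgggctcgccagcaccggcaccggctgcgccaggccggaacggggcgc
Twist2: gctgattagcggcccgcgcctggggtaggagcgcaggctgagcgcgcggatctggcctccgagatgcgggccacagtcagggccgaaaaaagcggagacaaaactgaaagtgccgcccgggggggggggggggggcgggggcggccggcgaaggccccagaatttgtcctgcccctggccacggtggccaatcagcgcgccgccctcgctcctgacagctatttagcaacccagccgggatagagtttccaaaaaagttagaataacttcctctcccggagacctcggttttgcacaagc
The Snai1 window held 1 such E-box, CACCTG at chr2:167538069-167538074, which begins 126 bases before the start. The Twist1 and Twist2 windows held no CANNTG on either strand, and neither did the 4 windows of Zeb2. Of all 32851 RefSeq windows of this length, 20.2% held CACCTG or CAGGTG and 72.3% held CANNTG, a motif that contains both. The 3 windows printed are rich in G and C, at 70.0% for Snai1, 66.0% for Twist1 and 64.7% for Twist2, against a median of 52.7% over all windows. A match of letters is a description of the window and not evidence of binding.

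Zeb1 and Zeb2 encode zinc finger and homeodomain repressors that act on Cdh1 and on the miR-200 family, which targets them in turn. Zeb1 (Entrez 21417, chr18:5591327-5775468, plus strand) had 6.09, 6.22, 6.31 and 6.24 normalized RPKM in BAP1 KO, against 6.84, 6.85, 7.05 and 7.16 in WT. All BAP1 KO libraries were lower than all WT libraries. Zeb1 fell by 0.18 ± 0.03 on the log2 scale to 88.3% of the WT CPM (edgeR adjusted p = 2.1e-06). Gm10125, on the other strand, shares 198 bases with Zeb1 exons and had 4 to 10 counts a library. Zeb2 (Entrez 24136, chr2:44983512-45117442, minus strand) had 22.4, 23.2, 23.4 and 23.0 normalized RPKM in BAP1 KO, against 24.5, 24.5, 23.7 and 23.3 in WT. The lowest WT library lay within the BAP1 KO range. The fall of Zeb2 was small, at 0.07 ± 0.02 on the log2 scale, and passed with an edgeR adjusted p of 0.0067, which ran from 4.3e-05 to 0.043 over the alternatives. Zeb2os, an antisense RNA that shares 653 bases with Zeb2 exons, was higher in BAP1 KO at 18.8 CPM, against 17.1 CPM in WT. Strand cannot tell which gene gave unstranded reads over the shared bases.

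Tcf4 encodes E2-2, an E protein that pairs with TWIST and other basic helix-loop-helix factors and can itself repress Cdh1. Tcf4 (Entrez 21413, chr18:69343429-69687967, plus strand) had 4.24, 4.45, 4.46 and 4.59 normalized RPKM in BAP1 KO, against 5.7, 5.65, 5.44 and 5.5 in WT. The groups were well apart. Tcf4 fell to 78.9% of the WT CPM, a log2 fold change of -0.34 ± 0.03 (edgeR adjusted p = 1e-11). The other E proteins did not follow it. Tcf3, which encodes E12 and E47, had 19.8, 18.5, 18.6 and 20.3 normalized RPKM in BAP1 KO, against 15.4, 15.5, 15.1 and 16.4 in WT, and rose by 0.29 ± 0.03 on the log2 scale (0.18 with GC and length trends removed). Tcf12, which encodes HEB, rose by 0.09 ± 0.03 (0.17 with those trends removed).

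Id proteins bind E proteins and keep them off DNA. Id2 had 65.1, 66.3, 65.9 and 68.7 normalized RPKM in BAP1 KO, against 87.9, 91.1, 92.4 and 90.0 in WT. It was lower in every BAP1 KO library, with a log2 fold change of -0.45 ± 0.03 (edgeR adjusted p = 5.2e-16). Over the 6 E protein and Id protein genes other than Tcf4, 3 were higher, 1 was lower and 2 missed the threshold; the median log2 fold change was 0.06. Among the 3 was Id1, at 0.07 ± 0.03 with an edgeR adjusted p of 0.049, a value that was -0.02 with GC and length trends removed. Its call also ended without WT replicate 1, 2 or 3, without BAP1 KO replicate 1 or 4, and under other settings, with adjusted p of up to 0.43. Id3, the most abundant of them, did not pass at 346.1 ± 13 normalized RPKM in BAP1 KO and 354.1 ± 14 in WT (SD, n = 4 each). It was lower with library totals alone (adjusted p = 0.046), without WT replicate 2 (0.049) and with GC and length trends removed (5.2e-08).

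Cdh2, N-cadherin, was the more abundant of the pair of cadherins in both genotypes, and both fell in BAP1 KO. Cdh2 (Entrez 12558, chr18:16588877-16809246, minus strand) had 7.03, 6.83, 6.93 and 6.82 normalized RPKM in BAP1 KO, against 7.58, 7.68, 7.73 and 7.57 in WT. Libraries within a genotype lay close together and the genotypes did not overlap. Cdh2 fell by 0.16 ± 0.03 on the log2 scale to 89.6% of the WT CPM (edgeR adjusted p = 2.8e-06). Cdh1, E-cadherin (Entrez 12550, chr8:106603350-106670247, plus strand), had 10, 20, 27 and 21 counts in BAP1 KO, against 42, 36, 25 and 44 counts in WT. These counts are few, and those of BAP1 KO replicate 3 and WT replicate 3 were nearly equal. In normalized RPKM the values were 0.0327, 0.0578, 0.0747 and 0.0652 in BAP1 KO, against 0.139, 0.0946, 0.0771 and 0.128 in WT. Every BAP1 KO library was below every WT library, by a narrow gap between BAP1 KO replicate 3 and WT replicate 3, whose shared number is not a pairing. Cdh1 fell to 52.1% of the WT CPM, a log2 fold change of -0.91 ± 0.26 with an edgeR adjusted p of 0.0029. This p ran from 0.0011 to 0.017 over the alternatives that test against no change. Against a 1.5-fold change the edgeR adjusted p was 0.32. Cdh1 has the largest absolute fold change of the 10 genes and the largest standard error. It was not tested under the filter that asks for more than 1 CPM in 4 libraries.

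Esrp2 encodes an RNA-binding protein that drives epithelial splice forms, such as those of Fgfr2 and Cd44. Esrp2 (Entrez 77411, chr8:106130319-106137193, minus strand) had 3.21, 3.57, 3.71 and 3.64 normalized RPKM in BAP1 KO, against 2.45, 2.48, 2.4 and 2.53 in WT. The groups were clearly apart, with BAP1 KO replicate 1 the lowest of its genotype. Esrp2 rose by 0.51 ± 0.05 on the log2 scale to 142.3% of the WT CPM (edgeR adjusted p = 1.8e-10), with values of 0.47 to 0.55 over the alternatives. Its exons share 219 bases with those of Nfatc3 on the other strand, which rose by 0.08 ± 0.03, and 119 bases with those of 1810019D21Rik, which rose by 0.71 ± 0.11. Strand cannot tell which gene gave unstranded reads over these bases, and their part in the result was not tested. The start of Esrp2, on the minus strand, lies 466 kb from the start of Cdh1 on the same chromosome. The 2 genes moved in opposite directions. Its paralog Esrp1 had 0, 3, 0 and 1 counts in BAP1 KO, against 1, 1, 0 and 0 in WT, and was too low to test.

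The balance within 4 pairs of genes was compared library by library as the log2 ratio of normalized RPKM, with an exact two-sided permutation test over the 8 libraries, for which the smallest possible p is 0.029, and adjustment over the 4 ratios. The ratio of Cdh2 to Cdh1 was 214.9, 118.2, 92.8 and 104.6 in BAP1 KO, against 54.6, 81.1, 100.2 and 59.2 in WT. The groups overlapped, because WT replicate 3 exceeded BAP1 KO replicate 3. The mean log2 ratio was 6.97 ± 0.54 in BAP1 KO and 6.16 ± 0.41 in WT (SD, n = 4 each), a difference of 0.81 that did not pass (exact permutation p = 0.057, adjusted 0.057). Adding 0.1 to both values before taking the ratio lowered the difference to 0.26, since Cdh1 itself lies at or near that value.

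The other 3 ratios did not overlap between genotypes. Snai2 to Snai1 was 0.169, 0.162, 0.166 and 0.166 in BAP1 KO, against 0.237, 0.222, 0.225 and 0.221 in WT, a log2 difference of -0.45. Twist2 to Twist1 was 0.559, 0.613, 0.559 and 0.489 in BAP1 KO, against 0.391, 0.406, 0.431 and 0.438 in WT, a log2 difference of 0.41. Zeb1 to Zeb2 was 0.272, 0.268, 0.27 and 0.271 in BAP1 KO, against 0.279, 0.28, 0.297 and 0.308 in WT, a log2 difference of -0.11. Each of these had the smallest exact permutation p of 0.029, or 0.039 adjusted. SLUG message thus made up less of the SNAIL pair in BAP1 KO, and Twist2 more of the TWIST pair. With any 1 library left out the smallest possible p is 0.057, so these calls cannot be made from 7 libraries.

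**Figure D3:**
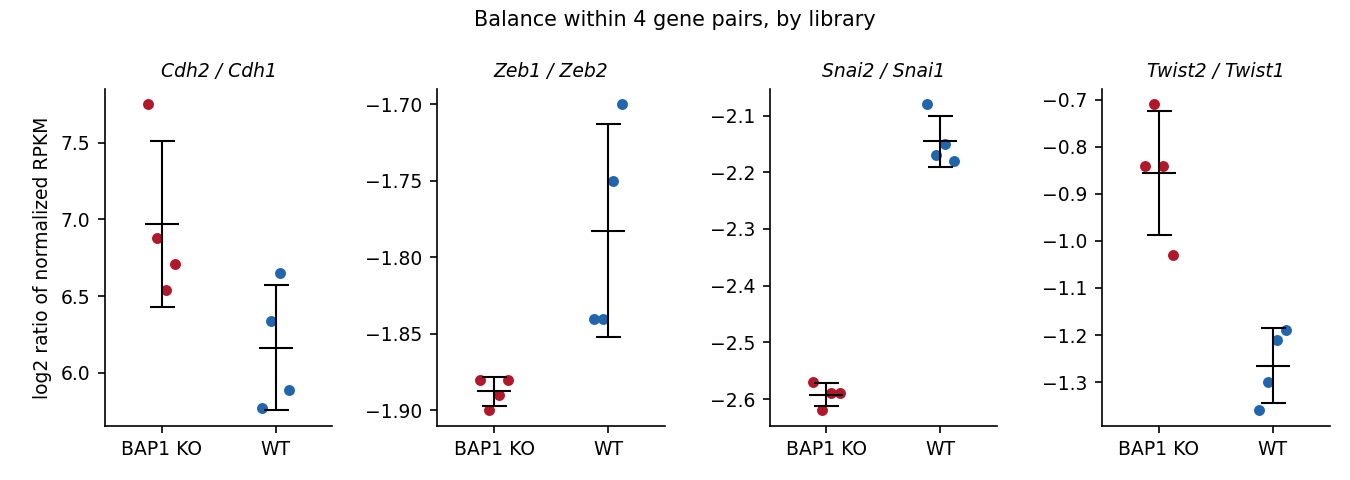
Log2 ratio of normalized RPKM for 4 pairs of genes in each library, BAP1 KO left and WT right, with the mean and SD (n = 4 each). The Cdh2 to Cdh1 ratios overlap, at 6.97 ± 0.54 in BAP1 KO and 6.16 ± 0.41 in WT, and the ratios of the other 3 pairs do not. The y axes differ between panels and do not start at 0.

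Among 18 other cadherin genes, 11 could be tested, and all of these passed, 6 higher and 5 lower, with a median log2 fold change of 0.85. Over all tested genes 61.1% passed, 29.0% higher and 32.1% lower. The counts of the E and Id proteins above and of the lists below stand beside the same shares. The most abundant, Cdh11 and Cdh3, were lower. Cdh11, a mesenchymal cadherin, had 80.6, 81.3, 84.1 and 82.5 normalized RPKM in BAP1 KO, against 105.5, 107.1, 102.8 and 102.6 in WT, more than Cdh2 in every library. It fell by 0.36 ± 0.02 on the log2 scale (edgeR adjusted p = 2e-15). Cdh3, P-cadherin, whose gene ends 46.4 kb before Cdh1, had 11.3, 11.2, 11.1 and 11.4 in BAP1 KO, against 12.2, 11.8, 11.8 and 12.5 in WT, and fell by 0.12 ± 0.03. P-cadherin message thus exceeded E-cadherin message in all 8 libraries.

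The 6 cadherins that rose were scarcer than Cdh11 and Cdh3 in both genotypes, and all 6 also passed the test against a 1.5-fold change. Cdh6, K-cadherin, had 2.14, 2.15, 2.23 and 2.19 normalized RPKM in BAP1 KO, against 1.01, 0.911, 0.867 and 0.905 in WT. It rose by 1.23 ± 0.04 on the log2 scale (edgeR adjusted p = 8e-21), more than any of the 10 EMT genes. Cdh24 averaged 0.67 ± 0.035 in BAP1 KO and 0.365 ± 0.048 in WT (SD, n = 4 each), and rose by 0.85 ± 0.12. Cdh13, T-cadherin, which is held in the membrane by a lipid anchor, averaged 0.276 ± 0.039 in BAP1 KO and 0.0728 ± 0.018 in WT, a log2 fold change of 1.89 ± 0.19. Cdh4, Cdh8 and Cdh22, cadherins known from the nervous system, averaged 0.104, 0.247 and 0.201 in BAP1 KO and 0.0357, 0.0912 and 0.0921 in WT, and rose by 1.52 ± 0.22, 1.41 ± 0.14 and 1.12 ± 0.19. Cdh5, VE-cadherin of endothelium, averaged 0.0805 ± 0.015 in BAP1 KO and 0.213 ± 0.026 in WT and fell by 1.41 ± 0.19. Cdh26 and Cdh10 fell by 1.03 ± 0.21 and 0.60 ± 0.22, the last with an edgeR adjusted p of 0.021, which reached 0.085 over the alternatives. The summed level of the list was 95.9 to 99.2 normalized RPKM in BAP1 KO libraries and 116.7 to 121.1 in WT libraries, most of it Cdh11. Several of these cadherins had few counts. Cdh4 had 16 to 55 a library, Cdh5 19 to 72, Cdh10 17 to 45, Cdh13 17 to 97, Cdh22 22 to 83 and Cdh26 25 to 76. Under the filter of more than 1 CPM in 4 libraries, 3 were higher and 2 lower.

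**Figure D4:**
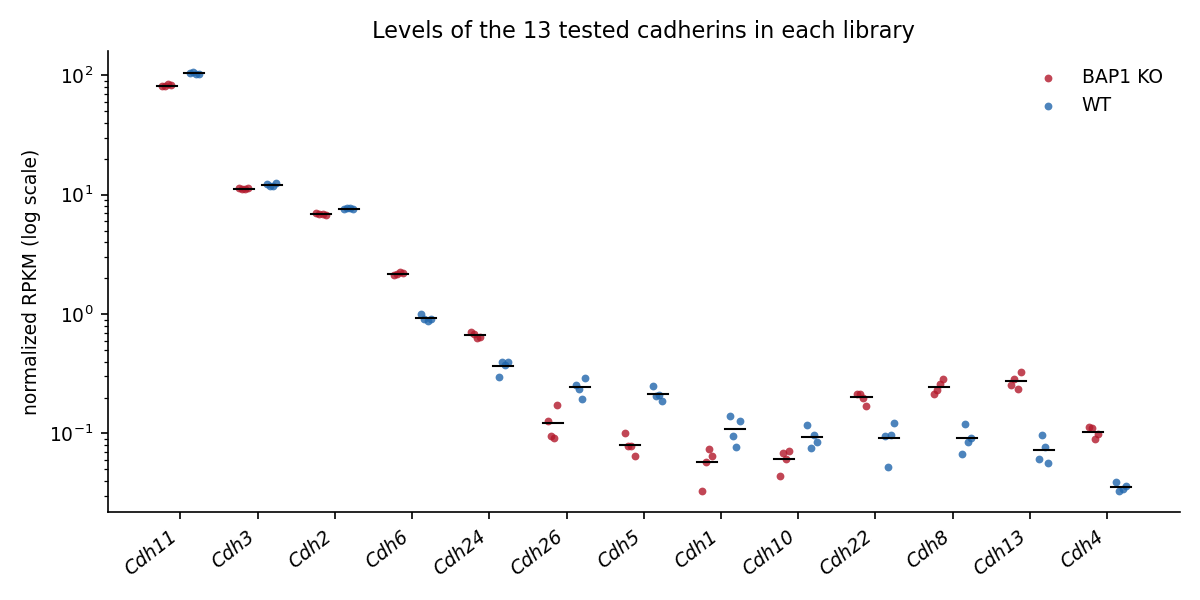
Normalized RPKM on a log axis of the 13 tested cadherins, Cdh1 and Cdh2 included, in the BAP1 KO (left, red) and WT (right, blue) libraries, with a line at the mean. Cdh11, Cdh3 and Cdh2 are the highest and lower in BAP1 KO, and Cdh6 averages 2.18 in BAP1 KO and 0.923 in WT.

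Partners of the cadherin tail and neighbouring nectins were tested for 12 of 14 genes. Of these 6 were higher, 3 lower and 3 neither, and their median was 0.04. Nectin1, an adhesion receptor of adherens junctions, averaged 9.41 ± 0.28 normalized RPKM in BAP1 KO and 6.36 ± 0.19 in WT (SD, n = 4 each) and rose by 0.55 ± 0.03 on the log2 scale. Nectin2 rose by 0.18 ± 0.02. Ctnnd1, p120-catenin, which keeps cadherins at the membrane, averaged 62.1 in BAP1 KO and 53.2 in WT and rose by 0.21 ± 0.02. Vcl, vinculin, which links junctions to actin, averaged 248.5 in BAP1 KO and 290.2 in WT and fell by 0.24 ± 0.02. Ctnnd2, delta-catenin, fell by 0.36 ± 0.04.

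Factors of epithelial identity and of splicing, Esrp2 left aside, could be tested for 10 of 17 genes. Of these, 5 were higher, 0 lower and 5 neither, with a median of 0.09. The list is not epithelial throughout, since it also holds general splicing factors and Rbfox2. The 5 higher were Rbm47, Klf4, Rbfox2, Celf1 and Rbms3. Grhl1, Ovol1 and Klf5 did not pass, and Esrp1, Grhl2, Ovol2, Elf3 and Ehf were too low to test. The 0 lower held at an unadjusted p below 0.05 and in DESeq2 and limma-voom (0 each), but 2 were lower with GC and length trends removed. Rbms3, an RNA-binding protein, had 10.1, 10.6, 11.0 and 10.4 normalized RPKM in BAP1 KO, against 8.17, 8.04, 7.8 and 7.39 in WT, and rose by 0.41 ± 0.03 on the log2 scale. Celf1, a splicing and decay factor, rose by 0.28 ± 0.02, and Rbm47, an RNA-binding protein known to restrain EMT, rose by 0.24 ± 0.04 to 5.97 ± 0.10 in BAP1 KO, against 5.0 ± 0.34 in WT. Klf4, a transcription factor of epithelium, had 0.11 ± 0.04 with an edgeR adjusted p of 0.015, and did not pass without WT replicate 3 (0.07) or without BAP1 KO replicate 4 (0.09). Rbfox2, a splicing factor of mesenchymal forms, rose by 0.08 ± 0.02 but was at -0.08 with GC and length trends removed.

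Other transcription factors of mesenchyme could be tested for 15 of 18 genes, of which 3 were higher, 7 lower and 5 neither (median -0.10). Foxc2, a forkhead factor linked to EMT, averaged 1.33 ± 0.10 normalized RPKM in BAP1 KO and 2.42 ± 0.13 in WT (SD, n = 4 each) and fell by 0.88 ± 0.07. Etv4, an ETS factor, averaged 5.2 in BAP1 KO and 9.31 in WT and fell by 0.86 ± 0.04. Hmga2, a chromatin protein that can raise Snai1 and Twist1 in mouse cells, averaged 5.45 in BAP1 KO and 8.84 in WT and fell by 0.71 ± 0.04. Tcf21, a factor of visceral mesoderm and its fibroblasts, averaged 26.5 in BAP1 KO and 44.5 in WT and fell by 0.76 ± 0.03. Runx2, a factor of bone, rose by 0.36 ± 0.04.

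Corepressors that SNAIL and ZEB proteins recruit were all tested, and 9 of the 15 were higher, 3 lower and 3 neither (median 0.07). The steps were small. Sin3a, a scaffold of histone deacetylases, rose by 0.19 ± 0.03 and Ctbp2, a partner of ZEB proteins, by 0.12 ± 0.03. Suv39h1, a histone H3 methyltransferase, fell by 0.20 ± 0.04. Wtip, a LIM protein, had 0.15 ± 0.03 and Hdac2, a deacetylase, -0.14 ± 0.03, but with GC and length trends removed Wtip stood at -0.09 and Hdac2 did not pass.

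Enzymes that set the stability or location of SNAIL, ZEB and TWIST proteins split into 4 higher, 6 lower and 10 that missed the threshold among 20 (median -0.03); with GC and length trends removed 8 were higher. Pak1, a kinase that phosphorylates SNAIL and favours its stay in the nucleus, averaged 5.94 ± 0.20 normalized RPKM in BAP1 KO and 12.4 ± 0.35 in WT (SD, n = 4 each). It fell by 1.08 ± 0.03 on the log2 scale (edgeR adjusted p = 1.1e-22). Gsk3b, the kinase that marks SNAIL for decay, rose by 0.18 ± 0.03, and Csnk1a1, a kinase of the same route, by 0.11 ± 0.02. The ubiquitin ligase subunits Btrc, which takes up phosphorylated SNAIL, and Fbxw7 fell by 0.33 ± 0.04 and 0.37 ± 0.04. Protein levels were not measured.

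**Figure D5:**
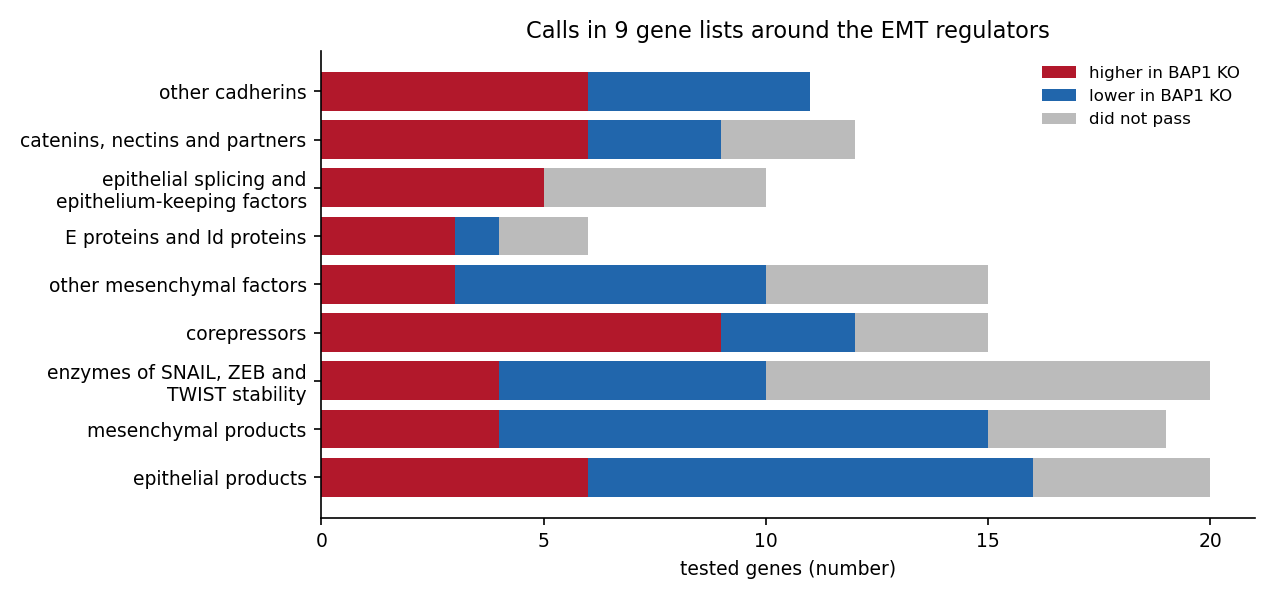
Number of tested genes higher in BAP1 KO (red), lower (blue) or not passing (grey) in 9 lists of genes around the EMT regulators, by edgeR at an adjusted p below 0.05. Over all tested genes 29.0% were higher and 32.1% lower, and the lists of mesenchymal products (11 of 19 lower) and epithelial products (10 of 20 lower) both hold more falls than rises.

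Among products typical of mesenchymal cells and among those typical of epithelial cells, more genes were lower than higher in BAP1 KO. Of 19 mesenchymal products tested, 4 were higher, 11 lower and 4 neither, and the median was -0.16. Their summed level was 7296.9 to 7406.9 normalized RPKM in BAP1 KO libraries and 8126.2 to 8271.8 in WT libraries. Fn1, fibronectin, averaged 1152.9 ± 14 in BAP1 KO and 1542.7 ± 23.0 in WT (SD, n = 4 each) and fell by 0.43 ± 0.02. The proteases Mmp2 and Mmp3 fell by 0.54 ± 0.02 and 1.24 ± 0.04, and the integrin subunit gene Itgb3 fell by 1.42 ± 0.05 to 0.932 in BAP1 KO, against 2.48 in WT. Mmp9, a protease also made by macrophages, averaged 27.2 in BAP1 KO and 18.3 in WT and rose by 0.56 ± 0.03. Vim, vimentin, named after its values were seen, averaged 987.3 in BAP1 KO and 1132.7 in WT and fell by 0.21 ± 0.02.

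Of 20 epithelial products tested, 6 were higher, 10 lower and 4 neither, and the median was -0.24. With more than 1 CPM in 4 libraries, 3 were higher. Their summed level was 33.3 to 34.2 normalized RPKM in BAP1 KO libraries and 40.0 to 41.6 in WT libraries. The keratins Krt18 and Krt8, a pair that assemble together, fell by 1.38 ± 0.07 and 1.56 ± 0.13, Krt18 to 2.44 ± 0.22 in BAP1 KO, against 6.31 ± 0.44 in WT. Both keratins are also counted in the list of mesothelial markers. The tight junction scaffold gene Tjp1 fell by 0.30 ± 0.03, and the protease inhibitor gene Spint1 by 0.98 ± 0.10. Epcam, an adhesion protein of most epithelia, was too low to test at 0.0668 in BAP1 KO and 0.0514 in WT. The tested genes named here are among the 5 with the smallest adjusted p of the list and were all lower, while the 6 that were higher rose by 0.34 to 1.07.

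Markers of other cell types moved alongside these genes, and their counts stand beside the same shares over all tested genes, 29.0% higher and 32.1% lower. Of 14 fibroblast markers 11 were lower, 3 missed the threshold and 0 were higher in edgeR, as were 0 at an unadjusted p below 0.05, in DESeq2 and in limma-voom. The median was -0.41. Their summed level was 3410.1 to 3552.9 normalized RPKM in BAP1 KO libraries and 4273.6 to 4549.5 in WT libraries. Postn, periostin, averaged 26.0 ± 0.64 in BAP1 KO and 82.4 ± 2.0 in WT (SD, n = 4 each). None of the 14 was at 0 in all libraries of a genotype. Fibroblasts express Snai2, Twist1, Twist2, Zeb1, Zeb2, Tcf4 and Cdh11. Of these genes Twist2 was higher in BAP1 KO and the others were lower, while Snai1, not among them, did not pass. The part of fibroblast content in these changes was not tested.

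Of 15 macrophage markers 7 were higher, 6 lower and 2 neither (median 0.02), and they summed to 15200.3 to 15882.7 normalized RPKM in BAP1 KO libraries and 12650.3 to 13050.0 in WT libraries. Most of that sum was Lyz2, and the other 14 markers summed to 5129.1 to 5345.4 in BAP1 KO libraries and 4978.6 to 5211.3 in WT libraries, which overlapped. Lyz2 rose by 0.39 ± 0.02, while Cd14 and Itgam fell by 0.99 ± 0.02 and 0.30 ± 0.02. Macrophages express Zeb2, and the part of these markers in the results was not tested. Of 10 smooth muscle and pericyte markers 4 were higher, 4 lower and 2 neither (median -0.02), and they summed to 5447.9 to 5569.8 in BAP1 KO libraries and 5345.7 to 5558.9 in WT libraries. Of the 16 mesothelial markers 6 were higher, 8 lower and 2 neither (median -0.03). Wt1, a factor known to act on Cdh1 and Snai1 in mouse epicardium, rose by 0.45 ± 0.02, while Msln, mesothelin, averaged 1.36 ± 0.063 in BAP1 KO and 3.08 ± 0.25 in WT and fell by 1.19 ± 0.07. Summed over the list, mesothelial markers stood at 572.0 to 574.8 in BAP1 KO libraries and 552.6 to 565.2 in WT libraries.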

How the data were processed

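RNA of 8 libraries from mouse omentum mesothelial cells was read on a HiSeq4000 as single 50 bp reads from TruSeq RNA v2 libraries, per the labels' protocols; this kit does not mark strand. Alignment used GSNAP and the build GRCm38, per the submitters' processing notes. The version of GSNAP, the gene models and any strand setting were not given in the sources used here. Per the file headers, each deposited count is the whole number of reads that align uniquely to a gene. Beside them the authors deposited RPKM adjusted by a size factor, used here as levels with no further scaling.

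Identifiers were given symbols from RefSeq GRCm38.p6 (31049 of 36528) and GENCODE vM21 (78). Genotypes were compared with edgeR 4.0.16 (R 4.3.3; quasi-likelihood F test, robust, TMM, filterByExpr by genotype) on all genes, 4 BAP1 KO against 4 WT, with Benjamini-Hochberg adjustment over 16929 genes and a threshold of 0.05. The standard error of a log2 fold change is its absolute value divided by the root of F. CPM uses the TMM-adjusted library totals, which were 67069401 to 84861343 counts before adjustment. In pairs of replicates, squared differences had a median of 2.39 to 5.33 times that of counting noise. No 2 libraries were taken as 1, though this excess cannot tell technical from biological replicates. The biological coefficient of variation was 0.029. Fits were checked on simulated counts. Ratios of normalized RPKM were tested by exact permutation.

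Alternatives were upper quartile and RLE factors, scaling by library totals only, testing every gene with no filter, a filter of more than 1 CPM in 4 or more libraries, limma-voom (limma 3.58.1), DESeq2 1.42.0, a test against a 1.5-fold change, 1 surrogate variable (sva 3.50.0), GC and length trends removed (known for 85.1% of tested genes), and each library left out. Ranges and limits of adjusted p given over the alternatives or settings leave out the test against a 1.5-fold change. The labels name no batch. The text names the 10 members, Bap1 and up to 5 tested genes with the smallest adjusted p of each of 9 pathway lists and 9 marker lists, and beyond that all 11 tested cadherins, the markers Upk3b and Epcam, Esrp1, Vim and genes that overlap a member. Some genes that this rule names are not reported here. Some lists share genes, so their counts are not separate observations. The members and lists were chosen with earlier results of these data known.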

Additional observations from a re-analysis of the deposited data

How the results depend on the processing

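No paired analysis was possible because the labels give no replicate numbers; those used here only name libraries and pair none. Against a 1.5-fold change, 0 of the 10 genes were higher and 0 lower (DESeq2 and limma-voom, against no change, 2 and 7 each), and over all genes 370 were higher and 1014 lower. Under the other settings 2 were higher and 6 to 8 lower: Cdh1 was not tested with more than 1 CPM in 4 libraries, and Snai1 passed with GC and length trends removed. Leaving out 1 library each gave log2 ratio differences of -0.13 to -0.08 for Zeb1 to Zeb2, -0.46 to -0.43 for Snai2 to Snai1 and 0.36 to 0.47 for Twist2 to Twist1, none of which can pass with 7 libraries. Among the genes named, the sign turned with GC and length trends removed for Snai1 (-0.08), Rbfox2 (-0.08), Id1 (-0.02), Wtip (-0.09) and the B cell gene Ms4a1 (0.08, otherwise -0.01). Ms4a1 also turned in limma-voom (0.01) and with 1 surrogate variable (0.01). With 1 library left out, Ms4a1 ran from -0.12 to 0.13, above 0 without WT replicate 1 (0.13) or BAP1 KO replicate 4 (0.07), and Snai1 ran from -0.01, without BAP1 KO replicate 4, to 0.04. Of the called list genes not named, 1 corepressor and 1 macrophage marker also turned, to a value below 0, with GC and length trends removed. The cause of these turns was not tested. The scalings moved the median fold change of all genes by at most 0.015. Depth limits Cdh1, with 10 to 44 counts. Counts in the lists moved by over 1.5 times as follows. Against a 1.5-fold change, higher and lower counts were 6 and 1 for other cadherins, 0 and 4 for mesenchymal factors, 0 and 2 for mesenchymal products, 0 and 3 for epithelial products, 0 and 1 for the stability enzymes, and 0 and 0 for catenin partners, the splicing list, E and Id proteins and corepressors. They were 2 and 4 for mesothelial, 0 and 1 for macrophage, 0 and 5 for fibroblast, 0 and 1 for smooth muscle, 0 and 1 for endothelial, 2 and 0 for adipocyte and 1 and 0 for neuronal markers, and 0 were higher for lymphocyte and other epithelial markers. With more than 1 CPM in 4 libraries, 0 lymphocyte and 1 other epithelial marker were higher, without a filter 1 lymphocyte marker was higher and 1 other epithelial marker lower, and 2 E and Id proteins were lower with library totals alone, with GC and length trends removed and without WT replicate 2.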

Other observations

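Over all tested genes 29.0% were higher and 32.1% lower in BAP1 KO. Adipocyte markers gave 7 higher and 2 lower among 9 tested of 10, with a median log2 fold change of 0.63, and sums of 242.8 to 253.4 normalized RPKM in BAP1 KO libraries and 187.7 to 197.9 in WT libraries. Plin1, which coats lipid droplets, averaged 3.52 ± 0.12 in BAP1 KO and 1.55 ± 0.094 in WT (SD, n = 4 each), and Fabp4, a fatty acid carrier, fell by 0.39 ± 0.03. With more than 1 CPM in 4 libraries 4 were higher, and without WT replicate 2 or BAP1 KO replicate 1 the lower ones numbered 1. Endothelial markers gave 3 higher, 5 lower and 1 that did not pass among 9 tested of 12, with a median of -0.54 (3 lower with more than 1 CPM in 4 libraries) and sums of 9.15 to 9.56 in BAP1 KO libraries and 12.4 to 12.9 in WT libraries.

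Lymphocyte markers were scarce, with sums of 1.69 to 1.92 normalized RPKM in BAP1 KO libraries and 2.02 to 2.07 in WT libraries, and gave 2 higher, 1 lower and 2 that did not pass among 5 tested of 9 (1 higher in DESeq2 and without replicate 3 of either genotype). Neuronal and glial markers gave 3 higher, 1 lower and 1 that did not pass among 5 tested of 9, with a median of 0.19. Of 9 genes listed as markers of epithelia other than mesothelium, 2 could be tested, and both were higher. Krt7 averaged 8.65 ± 0.38 in BAP1 KO and 5.93 ± 0.32 in WT (SD, n = 4 each), and Krt14 0.175 ± 0.054 and 0.0755 ± 0.023. Most of the list's sum, 8.68 to 9.49 normalized RPKM in BAP1 KO libraries and 6.01 to 6.46 in WT libraries, was Krt7. Krt7 is not particular to such epithelia. Epcam, Cldn4, Cldn7, Elf3 and Esrp1 were too low to test, and the presence of other epithelial cells was not tested.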
